A study of Mus musculus with 4 samples.

Results

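The comparison described here set the kdLNC array, from myeloid-derived suppressor cells (MDSCs) that had received a lentiviral shRNA against the long noncoding RNA lnc-C/EBPβ, against the kdNC array, from MDSCs with a control shRNA lentivirus. It covered the 11505 genes, of 18194 with a probe set of their own, that lay above the array median on at least 1 of the 2 arrays. The cells came from fresh bone marrow of C57BL/6 mice and were grown with GM-CSF and IL-6 for 4 days after infection, with 1 culture and 1 array in each group. The series holds 4 arrays, and the other pair, used here only as a yardstick, was oeNC, with an empty overexpression lentivirus, and oeLNC, with a lentivirus that carries the lncRNA. All groups share the strain, the cytokines and a lentivirus, and the control shRNA of the vector kit targets luciferase. The labels call the RNA lncMDSC, and its identity with lnc-C/EBPβ comes from the study. No probe set carries either name in the annotation used here, so the depth of the knockdown was not analysed here.

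MDSCs are immature myeloid cells, neutrophil-like or monocyte-like, that accumulate in tumours and inflammation and restrain T cells through enzymes such as arginase 1 and nitric oxide synthase. Cultures of marrow with GM-CSF and IL-6 hold these cells beside granulocytes, monocytes, macrophages and dendritic cells at many stages. The study asked how lnc-C/EBPβ acts on the differentiation of MDSCs together with LIP, the short isoform of C/EBPβ, and with WDR5, a subunit of histone H3K4 methyltransferase complexes. C/EBP proteins are transcription factors that bind as dimers and drive granule genes, acute phase genes and emergency granulopoiesis. In a bulk culture, fewer cells of a type and less RNA per cell cannot be told apart, and that holds for every value below.

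Values are probe set intensities, compared as a log2 difference of kdLNC minus kdNC, where 1 is a 2-fold change. A gene was represented by its brightest probe set over the 4 arrays, and its other probe sets are given only where they lay above the filter. With 1 array a side there is no replicate error and no p-value for any difference. The control difference, oeNC minus kdNC, is given beside the knockdown difference to show how far a second control culture lay from kdNC. Both differences use the kdNC array, so a low or high value on that array moves both in the same direction. Over all genes the SD of the control difference was 0.53 and that of the knockdown difference was 0.28. Among the 500 genes nearest in level to a given gene, the SD of the control difference ran from 0.34 to 0.65.

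Cell type markers placed the cultures among myeloid cells. Of the neutrophil markers, S100a8 and S100a9, the subunits of calprotectin, were near the top of the scale on both arrays, at 10240 and 10960 for S100a8 and at 10200 and 10540 for S100a9. The other neutrophil markers above the filter, Ltf, Camp, Cxcr2 and Ngp, were lower in kdLNC, with differences of -2.70, -1.50, -1.10 and -1.04. Ngp measured 8020 in kdNC and 3903 in kdLNC, with 7915 in oeNC and 7667 in oeLNC. The monocyte marker Csf1r, the receptor for M-CSF, measured 3133 in kdNC and 2758 in kdLNC, and the macrophage marker Adgre1, which encodes F4/80, measured 894.4 and 947.5. The defining macrophage markers Mrc1 and C1qa and the dendritic cell factor Zbtb46 lay below the filter. Genes of other lineages were also present, among them Cd79a of B cells at 177.4 and 172.4 and Mcpt8 of basophils at 1464 and 1141. The summed intensity of the monocyte list was 31070 in kdNC and 29650 in kdLNC, and that of the macrophage list was 8998 and 9786. The dendritic cell list had a median difference of -0.36, with Siglech of plasmacytoid cells at 54.9 and 27.8, but over all probe sets of its members the median was -0.04.

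In kdLNC, 55 genes were at least 2-fold higher than in kdNC, which is 0.478% of the genes compared, and 41 were at least 2-fold lower, which is 0.356%. At 1.5-fold the counts were 272 higher (2.36%) and 226 lower (1.96%). As many as 798 of the same genes (6.94%) differed by at least 2-fold between kdNC and oeNC. The knockdown pair was thus the closer pair, and the median knockdown difference over all genes was -0.05, with 40.6% of genes above 0. Of the 55 higher genes, 7 were above the filter in kdLNC alone, among them Cth, Ermn, Gm6377 and Prickle1, and of the 41 lower genes, 4 were above it in kdNC alone.

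**Figure D1:**
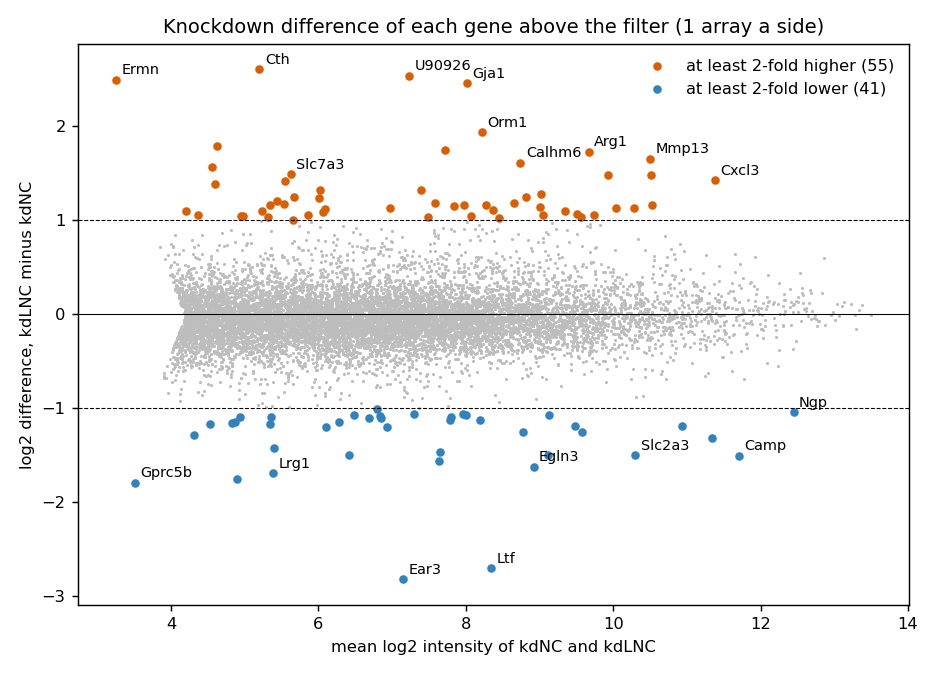
Knockdown difference (log2, kdLNC minus kdNC) against the mean log2 intensity of the 2 arrays, with 1 point per gene above the filter. The 55 genes at least 2-fold higher and the 41 at least 2-fold lower are coloured, dashed lines mark 2-fold, and Cth, U90926, Ermn and Gja1 at the top and Ltf and Ear3 at the bottom lie farthest out.

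In some of these genes kdLNC stood alone among the 4 arrays. In 18 of the 55 higher genes, kdLNC was at least 2-fold above each of the other 3 arrays, and in 13 of the 41 lower genes it was at least 2-fold below each of them. Over all genes, kdNC lay that far above the other 3 arrays in 12 genes and below them in 4. The same counts were 28 and 13 genes for oeNC and 0 and 4 for oeLNC. The 18 genes were Cth, Ermn, Orm1, Calhm6, Gm6377, Stfa3, Slc7a3, Tbx21, AI662270, Gimap8, Prickle1, Cyp4v3, Slamf8, Cldn12, Tasor2, Maf, Srsf1 and Vegfc. For AI662270 and Tasor2 the other probe set above the filter gave a knockdown difference of only 0.08 and 0.11. The 13 were Ltf, Lrg1, Egln3, Camp, Slc2a3, Il1r2, Ldhc, Selenom, Tinagl1, Adpgk, Cxcr2, Mgll and Rab44.

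Cth, which encodes cystathionine gamma-lyase, the enzyme that makes cysteine from cystathionine, showed the largest increase. Its intensity was 14.9 in kdNC and 90.5 in kdLNC, with 15.8 in oeNC and 10.6 in oeLNC, a knockdown difference of 2.61 with 3 arrays level and kdLNC alone high. Ermn, which encodes the actin-binding protein ermin of oligodendrocytes, was dim on 3 arrays, with 4.02 in kdNC, 4.15 in oeNC and 5.46 in oeLNC, and measured 22.6 in kdLNC. Orm1, which encodes the acute phase protein orosomucoid 1, measured 152.2 in kdNC and 584.3 in kdLNC, with 154.8 in oeNC and 138.2 in oeLNC, a difference of 1.94. Slc7a3, a transporter of cationic amino acids, measured 29.5 in kdNC and 83.0 in kdLNC, with 30.4 in oeNC and 28.8 in oeLNC. In all of these the other 3 arrays lay close together.

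A second group of higher genes was low in kdNC and high in the other 3 cultures. Gja1, which encodes the gap junction protein connexin 43, measured 110.7 in kdNC and 608.7 in kdLNC, with 408.5 in oeNC and 299.4 in oeLNC. Its knockdown difference was 2.46, its control difference 1.88, and its 4 other probe sets above the filter differed by 0.45 to 2.83. The noncoding transcript U90926 measured 62.1 in kdNC and between 230.6 and 382.0 on the other arrays, with 361.5 in kdLNC. Pid1, a regulator of insulin and lipoprotein receptor signalling, measured 114.8 in kdNC and 385.7 in kdLNC, with a control difference of 1.46. Calhm6, a large-pore channel gene, was different from these, since kdLNC (748.0) was the highest array and oeNC (56.8) the lowest. For the first 3 genes the kdNC array was the low one of the 4.

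**Figure D2:**
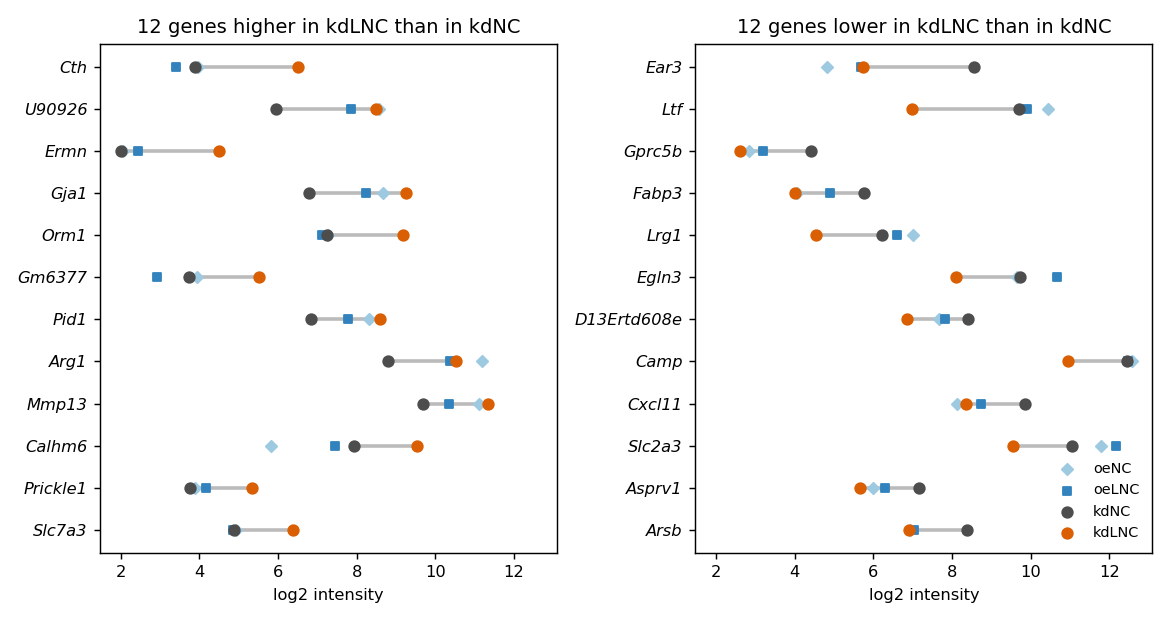
Log2 intensity on each of the 4 arrays for the 12 genes with the largest increase (left) and the 12 with the largest decrease (right) in kdLNC relative to kdNC, with a grey bar joining that pair. In Cth, Ermn, Orm1 and Slc7a3 the kdLNC point lies apart from 3 close points, whereas in U90926, Gja1, Arg1, Ear3 and Arsb the kdNC point is the one apart.

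Among the lower genes, the granule protein genes Ltf (lactoferrin) and Camp (cathelicidin) were low in kdLNC alone, at 127.3 against 828.3 to 1385 on the other arrays for Ltf and at 1986 against 5629 to 6075 for Camp. Lrg1, which encodes a leucine-rich glycoprotein of neutrophil granules and the acute phase, measured 75.2 in kdNC and 23.3 in kdLNC, with 128.0 in oeNC and 97.3 in oeLNC. Il1r2, the decoy receptor for interleukin 1, measured 1183 in kdNC and 496.2 in kdLNC, with 1808 and 1865 in oeNC and oeLNC. By contrast, Ear3, a ribonuclease gene of eosinophils, was high in kdNC (377.3) and between 28.5 and 53.5 on the other arrays. Gprc5b, an orphan receptor gene, Fabp3, a fatty acid carrier gene, Arsb, which encodes the lysosomal arylsulfatase B, and Asprv1, an aspartic protease gene, were likewise highest in kdNC. Their knockdown differences were -1.79, -1.75, -1.46 and -1.49 and their control differences -1.56, -1.71, -1.43 and -1.18. The second probe set of Fabp3 above the filter gave -0.16. Gprc5b and Fabp3 were above the filter in kdNC but not in kdLNC.

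Genes of the hypoxia response were lower in kdLNC almost throughout. Hypoxia-inducible factors (HIF) are held down by the prolyl hydroxylases encoded by the Egln genes and, when stable, switch on genes for glucose uptake, glycolysis, mitophagy and collagen hydroxylation. Of 27 hypoxia response genes above the filter, 26 were lower in kdLNC than in kdNC and 7 were at least 1.5-fold lower, a share far above the 1.96% of all genes. None was 1.5-fold higher. Their median knockdown difference was -0.47 and their median control difference 0.33. In 24 of the 27 (88.9%) kdLNC was the lowest of the 4 arrays, which was so in 29.5% of all genes. Their 53 probe sets above the filter gave a median of -0.36, with 48 below 0.

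Egln3, the prolyl hydroxylase that HIF itself induces, measured 848.2 in kdNC and 276.2 in kdLNC, with 798.7 in oeNC and 1620 in oeLNC, a knockdown difference of -1.62, and its second probe set gave -1.48. Ankrd37, an ankyrin repeat gene, measured 197.3, 110.5, 307.6 and 326.2 in the same order. P4ha1, the catalytic subunit of collagen prolyl 4-hydroxylase, measured 203.1, 125.9, 226.5 and 285.5, and its second probe set gave -0.70. Bnip3, a mitophagy receptor gene, measured 1811, 1203, 2362 and 3016. The kdLNC array was the lowest of the 4 for each of these genes. The exception in the list was Hif1a itself, which encodes the oxygen-regulated subunit, at 1414 in kdNC and 1950 in kdLNC (0.46), and whose 2 other probe sets gave between -0.05 and 0.42.

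The promoter windows of these genes often hold the core letters of the HIF element. In windows of 250 bases before and 50 after each RefSeq transcription start (assembly GRCm38.p6), the letters ACGTG, read on either strand, occurred in 20 of the 25 hypoxia response genes that had a window (80.0%). The same letters occurred in 21.8% of all 27025 genes with a window and in 29.1% of the 9316 such genes above the filter. Among glycolysis genes with a window, 17 of 24 had them (70.8%), and so did all 5 that were higher in kdLNC. All 7 genes of the hypoxia list at least 1.5-fold lower had the letters, and so did Hif1a, which was higher. The letters were thus found on both sides of the difference. The 250 bases upstream of Egln3, Bnip3 and P4ha1 are shown because these 3 genes are among those 7 and stand for oxygen sensing, mitophagy and collagen hydroxylation, with each ACGTG or its reverse complement in capitals. Egln3 is on the minus strand, in chr12:54203875-54204124. Bnip3 is on the minus strand, in chr7:138909507-138909756. P4ha1 is on the plus strand, in chr10:59323046-59323295.
Egln3: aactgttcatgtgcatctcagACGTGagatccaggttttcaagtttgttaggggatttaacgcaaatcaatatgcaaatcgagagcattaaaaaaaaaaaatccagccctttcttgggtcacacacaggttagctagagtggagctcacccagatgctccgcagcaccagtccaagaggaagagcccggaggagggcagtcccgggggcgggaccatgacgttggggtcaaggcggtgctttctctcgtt
Bnip3: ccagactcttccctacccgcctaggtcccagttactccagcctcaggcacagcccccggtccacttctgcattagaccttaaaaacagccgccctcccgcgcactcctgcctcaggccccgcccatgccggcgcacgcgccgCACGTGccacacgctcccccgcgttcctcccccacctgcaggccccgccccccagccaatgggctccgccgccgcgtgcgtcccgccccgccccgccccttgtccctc
P4ha1: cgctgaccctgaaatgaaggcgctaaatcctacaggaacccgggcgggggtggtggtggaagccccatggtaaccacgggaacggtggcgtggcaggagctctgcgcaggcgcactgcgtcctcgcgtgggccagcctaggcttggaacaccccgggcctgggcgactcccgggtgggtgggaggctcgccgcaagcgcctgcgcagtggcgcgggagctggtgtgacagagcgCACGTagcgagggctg
The 2 matches in Bnip3 overlap and read the same letters on both strands. A match is a string of letters, and binding was not measured here.

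Glycolysis genes were lower too, by less. Of 25 above the filter, 20 were lower in kdLNC, and the median difference was -0.31 beside a control difference of 0.22. At least 1.5-fold lower were 2 and at least 1.5-fold higher 2, beside 1.96% and 2.36% of all genes. The largest decrease was that of Slc2a3, the high-affinity glucose transporter GLUT3 of leukocytes, which measured 2116 in kdNC and 748.8 in kdLNC, with 3519 in oeNC and 4607 in oeLNC, and whose second probe set gave -1.71. Aldoc, an aldolase gene, measured 57.7 in kdNC and 29.3 in kdLNC, with 48.9 and 58.0 in oeNC and oeLNC. The 2 that were higher were Slc16a1, which encodes the monocarboxylate transporter MCT1, with a difference of 0.75, and Pfkfb3, which makes the activator of phosphofructokinase, with 0.61 and a second probe set at -0.31. Slc2a1, which encodes GLUT1, differed by 0.10. Outside the list, Adpgk, an ADP-dependent glucokinase gene, and Ldhc, a lactate dehydrogenase gene, were 2 of the 13 genes low in kdLNC alone, with differences of -1.07 and -1.14 and second probe sets at -0.17 and -0.98. Taking both lists as 1 set of 51 genes, kdLNC was the lowest array in 40.

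**Figure D3:**
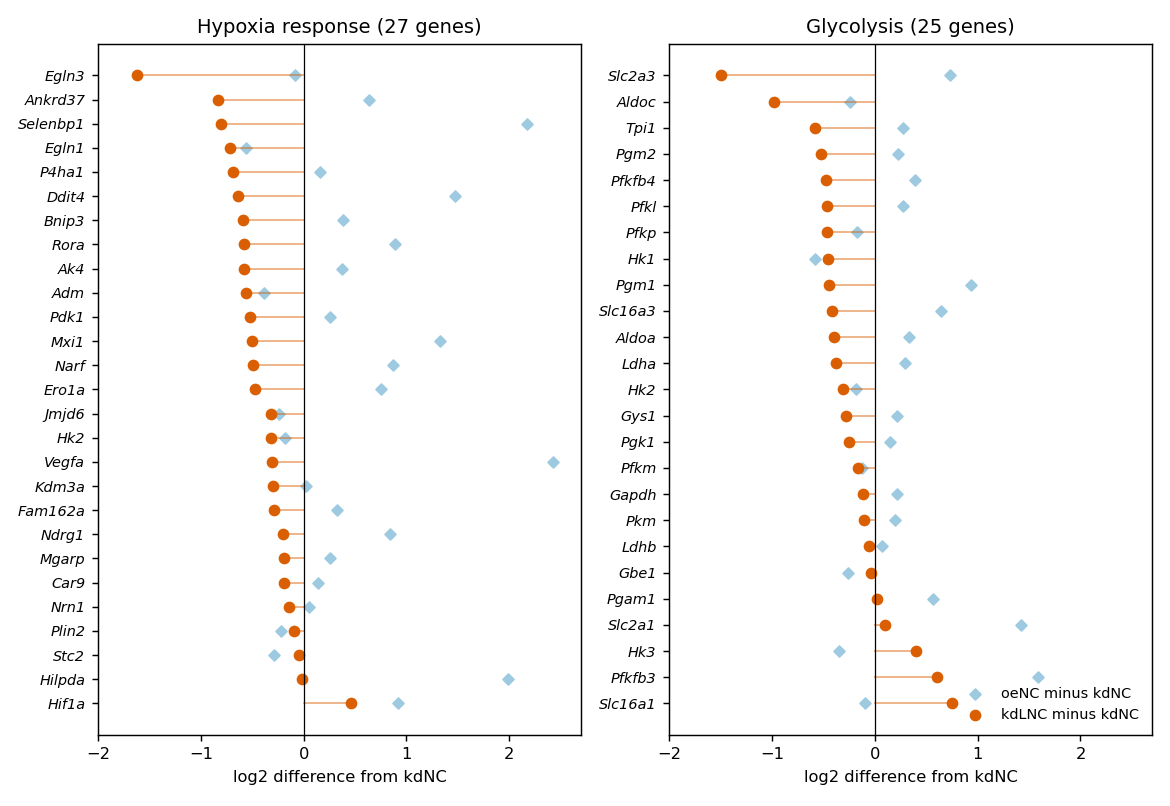
Log2 difference from kdNC of each hypoxia response gene (left) and glycolysis gene (right) above the filter, as circles for kdLNC and diamonds for oeNC, sorted by the knockdown difference. Of the 27 hypoxia response genes all circles but that of Hif1a lie left of 0, and many diamonds lie right of it.

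Genes of the amino acid response were on balance slightly higher. The transcription factor ATF4 is translated more when amino acids run short and raises genes for amino acid transport and for the synthesis of serine, glycine and asparagine. Of 28 members above the filter, 19 were higher in kdLNC, and the median difference was 0.18. At least 1.5-fold higher was 1 member (Slc7a3, at 1.49) and at least 1.5-fold lower were 2, beside 2.36% and 1.96% of all genes. Asns, which encodes asparagine synthetase, measured 428.0 in kdNC and 605.8 in kdLNC, with 424.3 in oeNC and 399.9 in oeLNC, and its second probe set gave 0.93. The serine and glycine pathway genes Phgdh, Psph and Shmt2 differed by 0.46, 0.44 and 0.47, and Slc7a5, a subunit gene of the transporter of large neutral amino acids, by 0.45. For Asns, Phgdh, Psph, Shmt2 and Slc7a5 kdLNC was the highest of the 4 arrays. The 2 lower members were Ddit4, an inhibitor of mTORC1 that is also on the hypoxia list, at -0.63, and Ddit3, which encodes CHOP, at -0.61. Atf4 itself gave -0.21.

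The composite element that ATF4 reads together with C/EBP partners, with the letters TGATGNAA, occurred on either strand in 8 of the 25 amino acid response genes with a promoter window (32.0%). It occurred in 4.51% of all genes with a window and in 2.89% of those above the filter. Asns is shown because its copy lies 23 bases before the start, in chr6:7693210-7693459 on the minus strand, with the letters in capitals.
Asns: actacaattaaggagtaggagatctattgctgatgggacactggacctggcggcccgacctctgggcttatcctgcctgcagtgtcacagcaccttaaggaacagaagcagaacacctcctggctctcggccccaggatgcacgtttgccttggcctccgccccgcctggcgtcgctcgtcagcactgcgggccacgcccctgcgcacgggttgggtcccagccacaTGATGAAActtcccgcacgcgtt
Around Cth, the other genes of transsulfuration and glutathione did not share its increase. Cbs, the enzyme before cystathionine gamma-lyase, differed by -0.14, Gclc and Gclm, subunits of the first enzyme of glutathione synthesis, by -0.09 and -0.36, and Slc7a11, the cystine transporter, by 0.05. Of the 27 members above the filter 20 were lower in kdLNC, and the median was -0.15. Cth was the only member past 1.5-fold upward, beside 2.36% of all genes. Mgst2, a microsomal glutathione transferase gene, was the only member past it downward, at -0.68, beside 1.96% of all genes.

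Several secreted mediators of neutrophil recruitment and inflammation were higher in kdLNC, and many of them were also higher in oeNC than in kdNC. Of 12 CXC chemokines above the filter, 4 were at least 1.5-fold higher, beside 2.36% of all genes, and the median difference was 0.35. That median became 0.049 with the mean of both controls and 0.019 without the filter. Cxcl3 measured 1627 in kdNC and 4374 in kdLNC, with 4792 in oeNC and 2672 in oeLNC. Cxcl1 measured 332.6, 809.0, 857.7 and 470.7 in the same order, and its other 2 probe sets gave 0.68 and 1.75. Both are ligands of the neutrophil receptor CXCR2. In Cxcl3 and Cxcl1 kdNC was the lowest array, and the control differences were 1.56 and 1.37. Pf4, a platelet chemokine gene, and Cxcl5 completed the 4, at 0.78 and 0.75, and Cxcl5 was above the filter in kdLNC alone, at 12.4 in kdNC and 20.8 in kdLNC. Cxcl11, an interferon-induced ligand of CXCR3, went the other way, with 929.1 in kdNC and 328.6 in kdLNC, with 280.1 in oeNC and 425.2 in oeLNC. The 15 CC chemokines had a median of 0.00, with Ccl8 at 0.77 and Ccl6 at -0.60.

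Single cytokine genes differed in both directions. Csf3, which encodes G-CSF, measured 346.7 in kdNC and 766.8 in kdLNC, with 662.4 in oeNC and 420.0 in oeLNC. Csf2, which encodes GM-CSF, measured 42.5, 84.3, 23.7 and 25.2, so that kdLNC was the highest array and the control difference was -0.84. Il1a, Il6 and Il1f6, which encodes interleukin 36 alpha, differed by 0.83, 0.68 and 1.17, with control differences of 0.55, 0.57 and 0.73. Csf2, Csf3, Il1f6, Il1a and Il6 were highest in kdLNC of the 4 arrays. These 5 were named after their values were seen. Osm, which encodes oncostatin M, was lower, at 589.1 in kdNC and 381.7 in kdLNC, with 1087 in oeNC and 736.9 in oeLNC. Of 20 inflammasome and IL-1 family genes above the filter, 13 were lower in kdLNC, near the share of all genes (6755 of 11505), and the median was -0.17.

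Arg1, Slc7a2 and Ptgs2 were low in kdNC and higher in the other cultures. Arg1, which encodes arginase 1, a suppressive enzyme of MDSCs, measured 446.0 in kdNC and 1479 in kdLNC, with 2337 in oeNC and 1330 in oeLNC, a knockdown difference of 1.73 and a control difference of 2.39. Slc7a2, the arginine transporter CAT2, gave 1.01, with 1.47 and 1.97 for its other probe sets and a control difference of 1.67. These were the 2 of 17 arginine and polyamine genes past 1.5-fold, beside 2.36% of all genes upward, and the list median was 0.07. Nos2, the inducible nitric oxide synthase, differed by 0.30. Ptgs2, which encodes cyclooxygenase 2, measured 982.9 in kdNC and 2204 in kdLNC, with 5444 in oeNC and 2729 in oeLNC. Relative to the mean of both control arrays its difference was -0.07, so its direction depends on the control. Of 18 eicosanoid genes, 11 were lower in kdLNC, a share near that of all genes (6755 of 11505). Their median was -0.16 and their control median -0.02. The 3 at least 1.5-fold lower, beside 1.96% of all genes, were Alox15, Alox5 and Cyp4f18, at -1.09, -0.62 and -0.60. These are genes of lipoxygenases and a leukotriene hydroxylase. In Cyp4f18 the control difference was -0.09, whereas in Alox15 and Alox5 it was -1.19 and -0.55.

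Most interferon-stimulated genes were lower in kdLNC than in kdNC, and most interferon-gamma targets were not. Of 50 interferon-stimulated genes above the filter, 44 were lower in kdLNC, with a median of -0.25. At least 1.5-fold lower were 7 and at least 1.5-fold higher 1, beside 1.96% and 2.36% of all genes. The control median was -0.39, and relative to the mean of both controls the knockdown median was -0.01. In 15 of the 50 kdLNC was the lowest array, a share close to the 29.5% of all genes. Ifit1bl1, of the family that binds foreign RNA ends, measured 2941 in kdNC and 1289 in kdLNC, with 524.8 in oeNC and 1490 in oeLNC, so its order among the cultures depends on the control chosen, and relative to the mean of both controls it differed by 0.05. For Mx1, a dynamin-like antiviral GTPase gene, kdLNC was the lowest array, at 480.3 against 813.5 in kdNC, 587.0 in oeNC and 537.8 in oeLNC. Bst2, which encodes tetherin, and Mx2 also had their lowest value in kdLNC, with differences of -0.72 and -0.68. Ifi204 of the HIN-200 family was the member past 1.5-fold upward, at 0.79.

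The interferon-stimulated response element, with the letters GAAANNGAA, occurred on either strand in 18 of 37 genes of that list with a window (48.6%). It occurred in 9.76% of all genes and in 8.64% of genes above the filter. Ifit3, at -0.66, is shown because it holds 3 copies, in capitals, in chr19:34583279-34583528 on the plus strand.
Ifit3: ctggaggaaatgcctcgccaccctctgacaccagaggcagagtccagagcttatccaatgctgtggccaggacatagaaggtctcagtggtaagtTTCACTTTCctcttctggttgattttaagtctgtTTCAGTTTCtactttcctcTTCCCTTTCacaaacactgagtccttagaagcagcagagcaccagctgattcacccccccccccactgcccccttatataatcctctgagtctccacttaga
Of 25 interferon-gamma targets above the filter, 18 were higher in kdLNC, the median was 0.06, which became 0.30 with the mean of both controls, and the control median was -0.52. Calhm6 and Ido1, which encodes the tryptophan-degrading enzyme indoleamine dioxygenase 1, were the 2 at least 1.5-fold higher, beside 2.36% of all genes. Ido1 measured 46.9 in kdNC and 89.7 in kdLNC, with 25.6 in oeNC and 33.6 in oeLNC. Tbx21, which encodes the transcription factor T-bet and is on neither list, measured 28.5, 76.2, 25.7 and 23.4, high in kdLNC alone. Cxcl11 was the only interferon-gamma target at least 1.5-fold lower, beside 1.96% of all genes. In 12 of the 25 kdLNC was the highest of the 4 arrays (48.0%, set beside 22.6% of all genes).

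Eosinophil genes had the lowest median of the 113 lists and families, at -1.09, and their level in kdNC was the one apart. All 7 members above the filter were lower in kdLNC, beside 6755 of all 11505 genes. At least 1.5-fold lower were 6, beside 1.96% of all genes, and the control median of the list was -1.71. With the mean of both controls the knockdown median became -0.43. Epx, the eosinophil peroxidase, measured 430.8 in kdNC and 197.8 in kdLNC, with 132.1 in oeNC and 136.2 in oeLNC. Prg2 and Prg3, which encode major basic proteins, differed by -0.88 and -1.07, and Ccr3, the eotaxin receptor, by -1.09. The summed intensity of the list was 3402 in kdNC and 1628 in kdLNC, with 1466 in oeNC and 1409 in oeLNC. Siglecf, an eosinophil lectin, differed by -0.55 and had a control difference of 0.09. The part of eosinophil content in the lower Alox15 and Ccr3 values was not tested.

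None of the 18 chemoattractant receptor genes above the filter was at least 1.5-fold higher, beside 2.36% of all genes. At least 2-fold lower were 3 of the 18, beside 0.356% of all genes. They were Ccr3, Ccr9, a receptor for a gut chemokine, at -1.06 on both of its probe sets above the filter, and Cxcr2, the receptor of Cxcl1 and Cxcl3. Cxcr2 measured 150.9 in kdNC and 70.3 in kdLNC, with 147.4 in oeNC and 171.0 in oeLNC, low in kdLNC alone, whereas in Ccr9 kdNC was the high array, at 227.0 against 71.2 to 108.6. The mature neutrophil list, to which Cxcr2 and Il1r2 belong, had a median of -0.68 and a summed intensity of 70040 in kdNC and 57730 in kdLNC. Not all of its members were lower. Stfa3, a stefin gene, measured 585.1 in kdNC and 1630 in kdLNC, with 478.4 in oeNC and 427.2 in oeLNC, and Mmp8, Lcn2, S100a8 and S100a9 differed by 0.11, 0.12, 0.10 and 0.05.

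Among lipid genes, those of cholesterol synthesis were slightly lower in kdLNC than in kdNC. Of 20 above the filter 17 were lower. At least 1.5-fold lower, beside 1.96% of all genes, was 1, Fdps, which encodes farnesyl diphosphate synthase, at 166.2 in kdNC and 78.7 in kdLNC. The median was -0.31, but the control median was -0.89, and relative to the mean of both controls the knockdown median was 0.15, so the direction depends on the control. Sqle, which encodes squalene epoxidase, measured 95.2 in kdNC and 76.8 in kdLNC, with 17.7 in oeNC and 21.8 in oeLNC. Mgll, the lipase that cleaves monoacylglycerols and the cannabinoid 2-arachidonoylglycerol, was low in kdLNC alone, at 45.1 against 92.4 to 107.9. Lpl, the lipoprotein lipase, gave -0.69 and -0.64 on its 2 probe sets. Abca1, the cholesterol efflux pump, measured 409.3 in kdNC and 805.0 in kdLNC, with 1698 in oeNC and 1190 in oeLNC. The 32 genes of lipid uptake, storage and efflux had a median of -0.06.

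Of 13 CD300 and TREM receptor genes above the filter, a family with activating and inhibitory members, 11 were lower in kdLNC. At least 1.5-fold lower were 2 of them, beside 1.96% of all genes, with a family median of -0.28 and a control median of 0.05. In 8 of the 13 (61.5%) kdLNC was the lowest array, beside 29.5% of all genes. The 8 Fc receptor genes above the filter had a median of 0.06. In 5 of these 8 kdLNC was the highest array (62.5%, beside 22.6% of all genes). Trem1, an amplifier of neutrophil inflammation, measured 303.1 in kdNC and 154.0 in kdLNC, with 814.5 in oeNC and 701.6 in oeLNC. Cd300lb measured 299.7, 161.8, 275.6 and 309.2. In both kdLNC was the lowest array, and the second probe set of Trem1 gave -0.31. Tnfrsf18, which encodes the receptor GITR, gave -1.20. It was the only gene past 1.5-fold among 25 TNF family ligands and receptors, beside 1.96% of all genes downward. Axl, a receptor for apoptotic cells, measured 59.8 in kdNC and between 24.98 and 28.89 on the other 3 arrays.

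Matrix genes differed in both directions. Of 31 extracellular matrix and remodelling genes, 6 were at least 1.5-fold higher and 3 at least 1.5-fold lower, beside 2.36% and 1.96% of all genes. The list median was 0.13. Mmp13, the collagenase 3, measured 817.1 in kdNC and 2575 in kdLNC, with 2208 in oeNC and 1296 in oeLNC. Serpinb2, the plasminogen activator inhibitor 2, measured 874.3, 2442, 1751 and 909.6, and Dse, which encodes dermatan sulfate epimerase, 14.95, 39.21, 42.22 and 19.02. Dse was above the filter in kdLNC but not in kdNC. Mmp9, the gelatinase B of neutrophil granules, was lower, at 808.6 in kdNC and 386.2 in kdLNC with a second probe set at -0.78, and kdLNC was its lowest array. Of 19 large-pore channel and purinergic genes, 13 were lower in kdLNC, beside 6755 of all 11505 genes, with a median of -0.06. The 3 at least 1.5-fold lower, beside 1.96% of all genes, were P2rx1, an ATP-gated channel gene, Nt5e, which encodes the nucleotidase CD73, and Gjc1, which encodes connexin 45. They gave -0.72, -0.67 and -0.59. The second probe set of Nt5e above the filter gave 0.22, and its control difference was 1.21. The 3 at least 2-fold higher, beside 0.478% of all genes, were Gja1, Calhm6 and P2ry6, the receptor for UDP. P2ry6 measured 106.2 in kdNC and 264.9 in kdLNC, with 353.6 in oeNC and 166.9 in oeLNC, with kdNC the lowest array.

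Transcription factors of the myeloid lineage stayed mostly near their kdNC level. Of 46 above the filter, 3 were at least 1.5-fold higher, Id2, Maf and Fli1, and 2 at least 1.5-fold lower, Id1 and Nfe2. The shares of all genes were 2.36% and 1.96%, and the list median was -0.06. For Maf, a macrophage factor, kdLNC was the highest array, at 1232 against 591.9 in kdNC, but its 4 other probe sets above the filter lay between -0.03 and 0.28. For Id2, an inhibitor of helix-loop-helix factors, the 2 other probe sets gave -0.13 and 0.51 beside 1.07. Id1 measured 481.0 in kdNC and 252.8 in kdLNC, with 150.6 in oeNC and 228.2 in oeLNC. For Fli1, the other probe set above the filter gave -0.03 beside 0.75. For each of Id2, Maf and Fli1, only 1 probe set above the filter thus passed 1.5-fold.

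Cebpb, which encodes the protein partner of the lncRNA, measured 4027 in kdNC and 4045 in kdLNC, a difference of 0.01, and its second probe set gave 0.03. The other C/EBP genes were lower, with Ddit3 at -0.61, Cebpd at -0.40, Cebpg at -0.34 and Cebpa at -0.33. Of the regulators the study named, Wdr5 differed by -0.22 on the probe set used and by -0.23 on another, and E2f3, Stat3, Stat5a, Stat5b and Irf8 lay between -0.14 and 0.11. Il4i1, an L-amino acid oxidase gene, was below the filter on both arrays, at 8.85 in kdNC and 5.87 in kdLNC, so no direction is drawn from it. The letters TTGCNNAA, a core that C/EBP dimers bind, occurred on either strand in 7 of 40 genes at least 2-fold higher that had a promoter window (17.5%), in 3 of 30 at least 2-fold lower and in 12.2% of all genes. The window of Ltf is shown because it is the lowest of the genes low in kdLNC alone and holds 1 match, in capitals, in chr9:111019042-111019291 on the plus strand.
Ltf: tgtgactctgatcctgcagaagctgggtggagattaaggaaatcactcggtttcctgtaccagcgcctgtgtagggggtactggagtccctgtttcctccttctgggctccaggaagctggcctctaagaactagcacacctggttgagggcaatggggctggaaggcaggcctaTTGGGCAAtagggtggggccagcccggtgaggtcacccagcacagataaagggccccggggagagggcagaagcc

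Some lists of cell growth and maintenance were mostly lower or mostly higher in kdLNC. Of all genes, 2.36% were at least 1.5-fold higher and 1.96% at least 1.5-fold lower. Autophagy genes were lower in 27 of 33 cases, with a median of -0.19 and a control median of 0.40, and 2 passed 1.5-fold in each direction. In 24 of the 33 (72.7%) kdLNC was the lowest array, beside 29.5% of all genes. Atg16l2, of the complex that lipidates LC3, was the lowest member at -0.90. Becn1, an initiation factor of autophagy, was the highest member at 0.91, and its other probe sets gave -0.24 and 0.26. Cell cycle inhibitors and p53 targets had a median of -0.26 and kdLNC as the lowest array in 11 of 23 (47.8%). The 3 members at least 1.5-fold lower were Gadd45g, a stress gene, Phlda3, an inhibitor of Akt, and Cdkn2c, which encodes p18. They gave -0.89, -0.83 and -0.71. Mitosis and DNA replication genes had medians of -0.12 and -0.10. Ribosome biogenesis genes were higher in 25 of 34 cases with a median of 0.10, and kdLNC was the highest array in 23 (67.6%, beside 22.6% of all genes). The control median of that list was -0.45, and with the mean of both controls its knockdown median became 0.32. The medians of oxidative phosphorylation subunits, ER chaperones and tricarboxylic acid cycle enzymes were 0.00, 0.00 and 0.01. Of 39 splicing factor genes, 4 were at least 1.5-fold higher and none was 1.5-fold lower. Among them Srsf1 and Tra2a passed 2-fold, beside 0.478% of all genes, both at 1.04. The other probe sets of Srsf1, however, lay between -0.35 and 0.72 and those of Tra2a between 0.08 and 0.16.

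**Figure D4:**
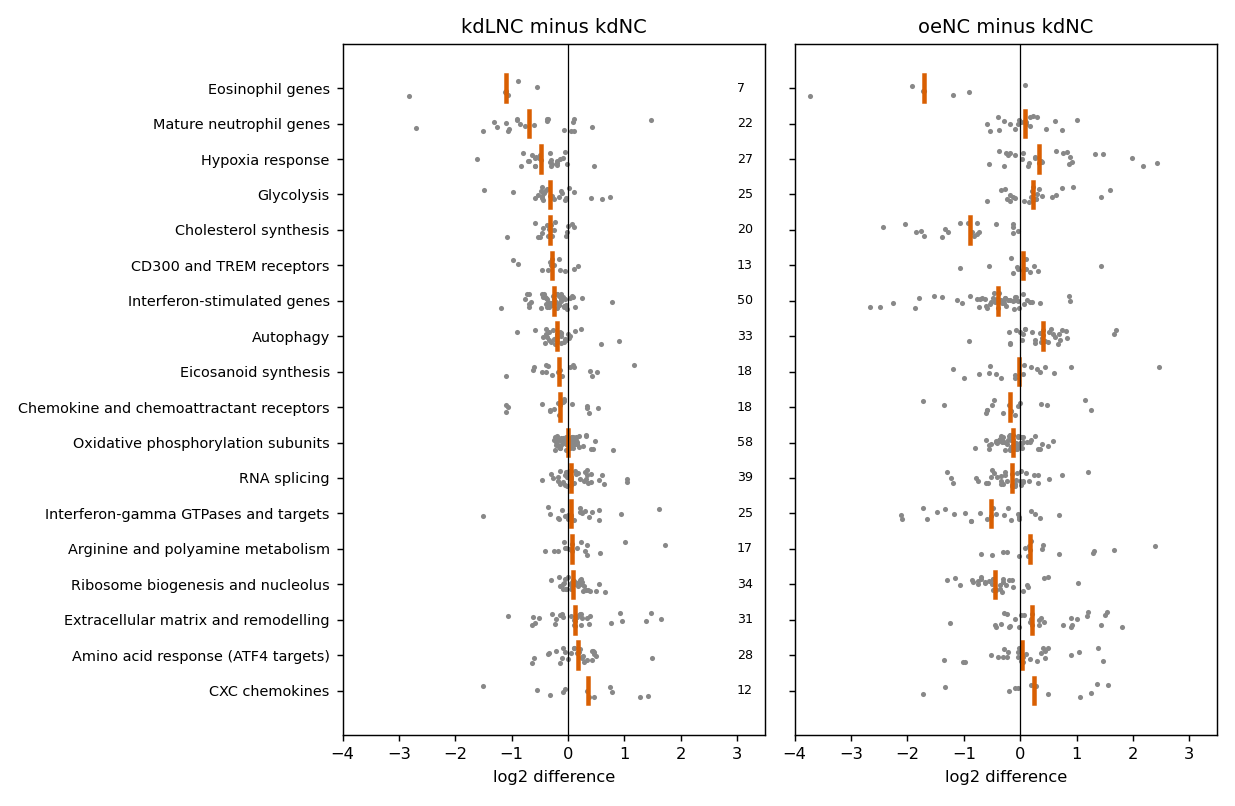
Log2 difference of each member above the filter (grey points, number of members at the right of the left panel) and list median (orange bar) for 18 lists, for kdLNC minus kdNC (left) and oeNC minus kdNC (right), which share the kdNC array. The hypoxia response median is -0.47 on the left and 0.33 on the right, whereas the eosinophil median is below 0 in both.

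Probe sets of the same gene did not always give the same difference, and the kind of probe set moved with the direction. Across 4955 genes with several probe sets above the filter, the 2 brightest differed from each other with an SD of 0.34. Of the 41 lower genes, 14 had other probe sets above the filter and in all 14 those were lower too. Sets below the filter were not counted, and 1 such set of Arsb gave 0.06. Of the 55 higher genes, 25 had other probe sets above the filter, and in 18 of them all the others were higher. Counted by probe set in place of gene, 152 (0.769%) were at least 2-fold higher and 56 (0.283%) at least 2-fold lower. Probe sets that are not the brightest of their gene were 2-fold higher in 1.17% of cases and lower in 0.181%. Affymetrix gives the ending _x_at to probe sets with probes that can match other sequences, and of 1313 such sets 2.97% were 2-fold higher, compared with 0.491% of the 14263 plain _at sets. For beta-actin, the 3′ over 5′ log2 ratio of the array's own controls was 1.61 for kdNC and between 1.96 and 1.97 on the other arrays. The same ratio for Gapdh did not set kdNC apart, with 0.51 for kdNC and 0.53 for oeNC, and with 0.69 for kdLNC and 0.65 for oeLNC. The part of probe set kind or RNA length in single differences was not tested.

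**Figure D5:**
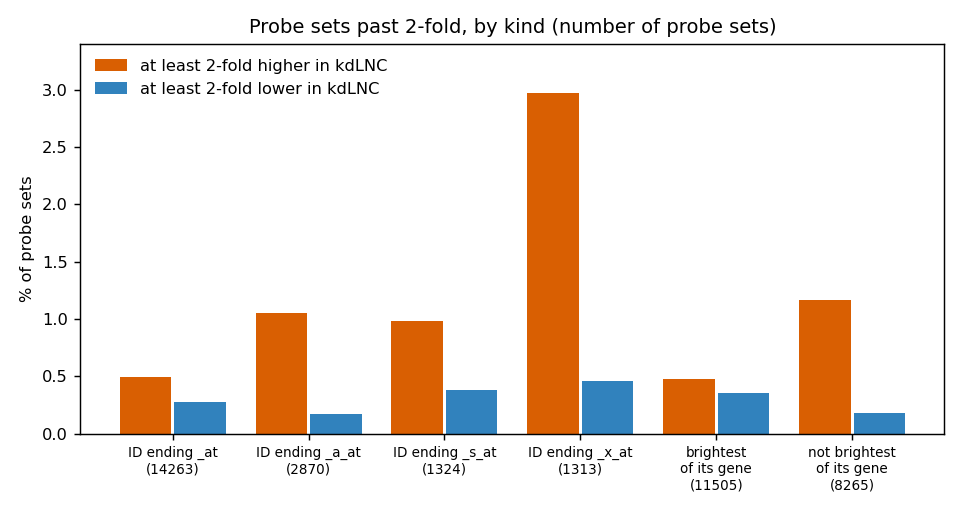
Percent of probe sets above the filter that were at least 2-fold higher (orange) or lower (blue) in kdLNC than in kdNC, by the ending of the probe set name and by whether the probe set was the brightest of its gene, with the number of probe sets in parentheses. Sets ending in _x_at have the tallest orange bar, at 2.97%.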

How the data were processed

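The authors deposited intensity values on a linear scale for 45101 probe sets of the Affymetrix GeneChip mouse genome array, for which their processing notes name RMA without a version or settings. RMA corrects the background, brings the arrays to 1 distribution and summarises the probes of a set, so most global shifts between arrays are removed. Groups were taken from the labels. The log2 of the deposited values was used, in pandas 2.3.3 and numpy 2.4.6 under Python 3.11.15, with statsmodels 0.14.6 for loess and matplotlib 3.10.9 for plots, and the calculation was tested on simulated data.

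Of the probe sets, 34958 have 1 gene symbol in the platform annotation, 932 several and 9211 none. The first kind was used, and 34754 of them matched a RefSeq gene by ID. A gene took its brightest probe set and had to lie above the 50th percentile of kdNC or kdLNC. Limma, the test of the methods, needs replicates, so folds of 2 and 1.5 stand in for it. No background estimate was used, and precision is limited by having 1 array a side.

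The 60 gene lists and 53 families defined by gene symbol were chosen with earlier results of these data known, and so was the comparison. Named are the 12 largest differences in each direction among genes whose other probe sets above the filter point the same way, the largest differences of each list (at most 4 members), the regulators named by the study, defining markers, and members of 2-fold counts of up to 5. Some further genes were named after their values were seen: the 18 and 13 genes in which kdLNC stood alone, cytokine genes, pathway neighbours of named genes, and members with small differences given for contrast. Alternatives were median centring, quantile normalization, loess within the pair with a span of 0.3, the mean of a gene's probe sets, exclusion of sets ending in _s_at, _x_at or _a_at, leaving out the filter or raising it to the 70th percentile, the mean of kdNC and oeNC as control, fold thresholds of 1.5 and 3, and probe sets as the unit. A median or difference that moved by under 0.2 was counted as the same, a limit set by choice. Promoter sequences are those of RefSeq, assembly GRCm38.p6.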

Additional observations from a re-analysis of the deposited data

Results flagged for a closer look

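Probe sets without a gene symbol in the annotation stayed out of every count of genes, and they held differences too. Of 2891 such probe sets above the filter, 18 (0.623%) were at least 2-fold higher in kdLNC than in kdNC and 9 (0.311%) were at least 2-fold lower. Among probe sets with 1 gene symbol the shares were 0.769% and 0.283%, so neither count stands out from those. The highest was 1443161_at, at 1.53 with a control difference of -0.14, followed by 1440188_at at 1.47. The lowest were 1449846_at, at -2.93 with a control difference of -3.02, and 1421802_at, at -2.75 with -2.24. On the kdNC array both of these were the highest of the 4 arrays, at 12.58 and 9.88 on the log2 scale.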

How the results depend on the processing

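No paired analysis was possible because the groups hold 1 array each, and for the same reason none could be left out. Of 252 recomputed list medians (28 lists), 240 moved by less than 0.2, and of 892 recomputed gene differences (115 genes), 781 did. That 781 holds 115 recomputed without a filter and 102 at the 70th percentile, where a gene's own difference cannot change. Swapping kdNC for the average of kdNC and oeNC moved 70 of the 115 genes, reversed 2 and left 43 the same. Averaging a gene's probe sets moved 25, and excluding sets ending in _s_at, _x_at or _a_at moved 14. Median centring, quantile normalization and loess moved none of these lists, genes and the 2 counts of genes past their limit. With the mean of kdNC and oeNC as control, 96 genes were 2-fold higher and 94 lower, the cholesterol synthesis median turned to 0.15, and Ifit1bl1 and Ptgs2 turned to 0.054 and -0.07. With that control the medians became 0.049 for CXC chemokines, -0.0076 for interferon-stimulated genes, 0.30 for interferon-gamma targets, -0.43 for eosinophil genes, 0.32 for ribosome biogenesis and -0.16 for dendritic cell genes, whose main median was -0.36. The dendritic cell median was -0.041 over all probe sets, -0.053 with the mean of each gene's probe sets and -0.064 without a filter. The mature neutrophil median became -0.48 with the mean of probe sets, and the CXC median 0.019 without a filter, which adds 3 dim members. The fold threshold set the counts, with 272 and 226 at 1.5-fold and 10 and 6 at 3-fold, and 152 probe sets stood in place of 55 genes. Intensities near the array median have no background estimate here, so depth of signal limits Ermn, Gprc5b and other dim genes.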
